A study of Mus musculus with 2 samples.

Results

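The type I interferon-stimulated genes were followed here as a set of 34 measured genes in mouse pancreatic tumours profiled by single-cell RNA-seq. The set was defined as 35 gene symbols, and a member was taken to be measured where its symbol had a row in both count matrices, which list 32285 genes each. Of the 35, 34 had a row, and Mx1 was not analysed here. Each of the 34 had at least 1 UMI (unique molecular identifier, a counted RNA molecule) in the kept cells of each library. Raw UMIs of the members were added up per cell class, per cluster of tumour cells and per library, and also within each cell as a score.

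The study compared KPC tumours in 2 kinds of mice. KPC cells are mouse pancreatic cancer cells, implanted here into the pancreas of every animal, and tumours were taken at day 21. Control mice were Porcn fl/fl littermates without a Cre driver named in their labels, and knockout mice were Csf1r-Cre;Porcn fl/fl, so both groups carried the floxed Porcn allele. Porcn encodes the enzyme that acylates Wnt proteins before their secretion, and Cre was driven by the promoter of Csf1r, a receptor gene of monocytes, macrophages and some other blood-derived cells. The tumours of 5 mice were pooled for each genotype into 1 library, so there was no replicate library and no test between genotypes. How far single mice vary cannot be seen, and each contrast sets 1 library against the other. The comparison asked how the cells of the tumour differ when myeloid cells are meant to lack Wnt secretion.

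Type I interferons, the interferon alpha and beta proteins, bind a receptor made of Ifnar1 and Ifnar2, and signalling from it leads to a complex of transcription factors that binds the interferon-stimulated response element (ISRE) in front of genes whose products block virus replication, sense foreign RNA and DNA, and tune the response itself. Many of the members also respond to interferon gamma, so their level alone does not tell which interferon acted. Myeloid cells and carcinoma cells of pancreatic tumours are both known to carry such a programme.

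The ISRE is the sequence feature that these genes are known for, and the upstream bases of 8 members, chosen after their values were seen, are shown for that reason, some with and some without its core. RefSeq promoter windows on GRCm38.p6 (from 250 bases before to 50 bases after a start site) were at hand for 26 of the 34 members. The core searched was GAAA, any 2 bases and GAAA again, which on the other strand reads TTTC, any 2 bases and TTTC, with matches allowed to overlap. Each line gives the 250 bases before the start site, 5′ to 3′ in the direction of the gene, with matches in capitals. The first 5 genes carry the core upstream. Ifi44, with the highest ratio in macrophage-like cells, and Samd9l and Lgals3bp, with the lowest ratios in tumour-like cells, carry no match in the window.

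Isg15 (chr4:156200819-156201068, minus strand): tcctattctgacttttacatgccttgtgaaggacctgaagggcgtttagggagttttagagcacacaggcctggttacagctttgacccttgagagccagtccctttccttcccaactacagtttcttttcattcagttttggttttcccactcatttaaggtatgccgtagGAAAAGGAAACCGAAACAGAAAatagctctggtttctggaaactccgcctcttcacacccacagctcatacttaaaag
Ifit3 (chr19:34583279-34583528, plus strand): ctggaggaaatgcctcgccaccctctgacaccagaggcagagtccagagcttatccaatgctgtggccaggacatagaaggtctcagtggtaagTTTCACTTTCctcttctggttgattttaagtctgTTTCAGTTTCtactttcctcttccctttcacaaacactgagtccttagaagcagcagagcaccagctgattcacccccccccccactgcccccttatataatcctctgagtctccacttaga
Ifit3b (chr19:34607707-34607956, plus strand): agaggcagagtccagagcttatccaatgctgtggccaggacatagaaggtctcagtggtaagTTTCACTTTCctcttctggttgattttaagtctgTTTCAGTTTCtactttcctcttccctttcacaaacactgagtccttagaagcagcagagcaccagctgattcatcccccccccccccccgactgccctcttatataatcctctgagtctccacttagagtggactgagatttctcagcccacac
Rsad2 (chr12:26456453-26456702, minus strand): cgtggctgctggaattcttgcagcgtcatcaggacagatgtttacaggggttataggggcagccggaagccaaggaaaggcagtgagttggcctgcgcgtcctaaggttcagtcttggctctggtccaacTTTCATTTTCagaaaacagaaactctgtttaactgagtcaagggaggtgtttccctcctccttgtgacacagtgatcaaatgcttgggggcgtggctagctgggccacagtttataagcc
Bst2 (chr8:71537473-71537722, minus strand): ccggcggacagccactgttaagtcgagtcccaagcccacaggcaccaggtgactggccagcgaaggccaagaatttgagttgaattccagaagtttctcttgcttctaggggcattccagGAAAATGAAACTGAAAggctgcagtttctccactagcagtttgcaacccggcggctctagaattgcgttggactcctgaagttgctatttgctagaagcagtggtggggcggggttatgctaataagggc
Ifi44 (chr3:151749911-151750160, minus strand): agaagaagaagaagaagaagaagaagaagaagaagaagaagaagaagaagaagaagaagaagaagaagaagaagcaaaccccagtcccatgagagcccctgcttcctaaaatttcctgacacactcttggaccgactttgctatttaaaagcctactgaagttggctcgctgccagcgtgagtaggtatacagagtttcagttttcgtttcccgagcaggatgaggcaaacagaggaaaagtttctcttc
Samd9l (chr6:3399572-3399821, minus strand): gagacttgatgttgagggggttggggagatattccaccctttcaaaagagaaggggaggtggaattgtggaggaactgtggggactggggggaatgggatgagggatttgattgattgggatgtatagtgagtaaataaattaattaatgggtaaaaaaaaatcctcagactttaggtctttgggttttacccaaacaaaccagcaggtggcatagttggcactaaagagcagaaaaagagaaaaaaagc
Lgals3bp (chr11:118401960-118402209, minus strand): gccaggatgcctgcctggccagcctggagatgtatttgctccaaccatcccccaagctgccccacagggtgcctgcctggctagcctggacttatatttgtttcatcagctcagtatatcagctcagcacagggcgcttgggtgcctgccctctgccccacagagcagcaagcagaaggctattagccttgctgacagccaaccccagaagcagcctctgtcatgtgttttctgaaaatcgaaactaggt

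Isg15 has 3 overlapping matches that begin 78, 72 and 66 bases before its start site. The Ifit3 matches begin 156 and 122 bases before the start, and those of Ifit3b, a neighbouring gene, 188 and 154 bases before it. Both genes hold the same pair of matches, within a stretch of 169 bases that is identical in their upstream windows. Rsad2 has 1 match, 120 bases before its start, and Bst2 has an overlapping pair at 130 and 124. Among members, 14 of 26 genes (53.9%) had a match anywhere in a window, against 1079 of 27025 genes in the whole table (3.99%). Ifih1, Ddx58, Ifitm3 and Eif2ak2 had theirs only after the start site. No match was found in the windows of Isg20, Ifit2, Oasl1, Oasl2, Ifi44, Cmpk2, Ifi35, Xaf1, Sp100, Herc6, Samd9l or Lgals3bp, and no window was at hand for Oas2, Usp18, Rtp4, Zbp1, Ifi27, Ifi27l2a, Dhx58 or Parp14. A match describes letters and is not a measured binding site.

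After filtering, 11516 control cells and 10467 knockout cells were kept, with a median of 12167.5 and 10109 UMIs per cell, and 46 barcodes occurred in both libraries. Clusters were formed without 245 interferon-related genes, the members among them, so that the members did not shape them. The clusters were named from markers of 20 cell classes, with the ending "-like". The tissue label speaks of tumour-infiltrating cells, but epithelial/tumour-like cells (hereafter tumour-like) made up 78.4% of kept control cells and 55.0% of kept knockout cells. Comparisons were made in the 5 classes that reached 100 cells in both libraries. These were tumour-like (9026 control and 5762 knockout cells), T-like (193 and 1624), fibroblast-like (387 and 707), monocyte/macrophage-like (510 and 555, hereafter macrophage-like) and neutrophil-like cells (291 and 181). Levels are counts per 1000000 UMIs of the class (CPM), and ratios are knockout over control. Intervals are exact at 95% and cover counting error only, not differences between mice or libraries. Porcn itself was too sparse to check the genotype: it had 8 control and 4 knockout UMIs in macrophage-like cells and none in neutrophil-like cells.

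The summed level of the 34 members was higher in the knockout library in 4 of the 5 classes and lower in fibroblast-like cells. In the pooled classes, neutrophil-like cells held the widest gap, from 4584 CPM in the control to 13416 CPM in the knockout library, a ratio of 2.93 (2.81 to 3.05). In macrophage-like cells, the sum was 5067 CPM in the control and 10783 CPM in the knockout library, a ratio of 2.13 (2.08 to 2.17). Both myeloid classes lay below the tumour-like level in the control library and above it in the knockout library. Clusters of a leukocyte class were also weighted alike in both libraries, each by its share of the class cells of both libraries together. With that weighting the neutrophil-like levels were 7275 CPM and 12929 CPM, a ratio of 1.78. The control level then lay above the tumour-like level, and the ratio was below the macrophage-like ratio of 2.13. For neutrophil-like cells this order and the widest gap thus did not hold under that weighting, and other weights were not tried.

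Tumour-like cells, which held most member UMIs of both libraries, stood at 5907 CPM in the control and 8131 CPM in the knockout library, a ratio of 1.38 (1.37 to 1.38). T-like cells had the lowest sum in both libraries, 2019 CPM and 2805 CPM, with a ratio of 1.39 (1.32 to 1.47). Most of that T-like difference was that of Ifi27l2a, with 398 CPM and 1053 CPM. Without Ifitm3, Bst2, Lgals3bp, Ifi27, Ifi27l2a and Isg20, the other 28 members gave a ratio of 1.07 (0.993 to 1.15). Fibroblast-like cells had 4084 CPM in the control and 3314 CPM in the knockout library, a ratio of 0.811 (0.796 to 0.827).

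The makeup of 2 classes bears on these sums. The neutrophil-like class was a mix of clusters whose shares differed between the libraries, which is why both ratios are given. A cluster led by Col1a2, Dcn and Col1a1 (283 control and 56 knockout cells) carried fibroblast and mesothelial markers alike, was left unnamed, and had 4564 and 4851 CPM of members, a ratio of 1.06 (1.02 to 1.10). Adding it to the fibroblast-like class gave a ratio of 0.791 for the class. In bulk sums of a class, fewer cells with a high level and less RNA per cell cannot be told apart, and the per-cell score given further on bears on that.

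RNA of tumour cells is also seen in the other classes. The summed level of 8 epithelial markers in T-like cells was 3.42% of the tumour-like level in the control and 2.74% in the knockout library. It was 7.24% and 3.16% in fibroblast-like cells, 7.0% and 3.49% in macrophage-like cells, and 4.12% and 3.84% in neutrophil-like cells. At those percentages, tumour-like levels of the members would amount to 414 CPM and 283 CPM in macrophage-like cells and to 244 CPM and 313 CPM in neutrophil-like cells, well under the sums measured there. In fibroblast-like cells they would amount to 428 CPM and 257 CPM, beside sums of 4084 CPM and 3314 CPM. Both the amount and the sum were lower in the knockout library there. Taken member by member, 32 of 34 in macrophage-like cells, 31 in neutrophil-like cells, 30 in fibroblast-like cells and 25 in T-like cells stood more than 2 times above that amount in both libraries. The 9 T-like exceptions were Ifit1, Ifit3, Ifit3b, Oasl1, Oasl2, Oas1g, Oas2, Ifi44 and Ifitm3. Ifit3 in control T-like cells did not, with 11.6 CPM against 11.5 CPM, nor did Ifit3b in either library of T-like or fibroblast-like cells.

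**Figure D1:**
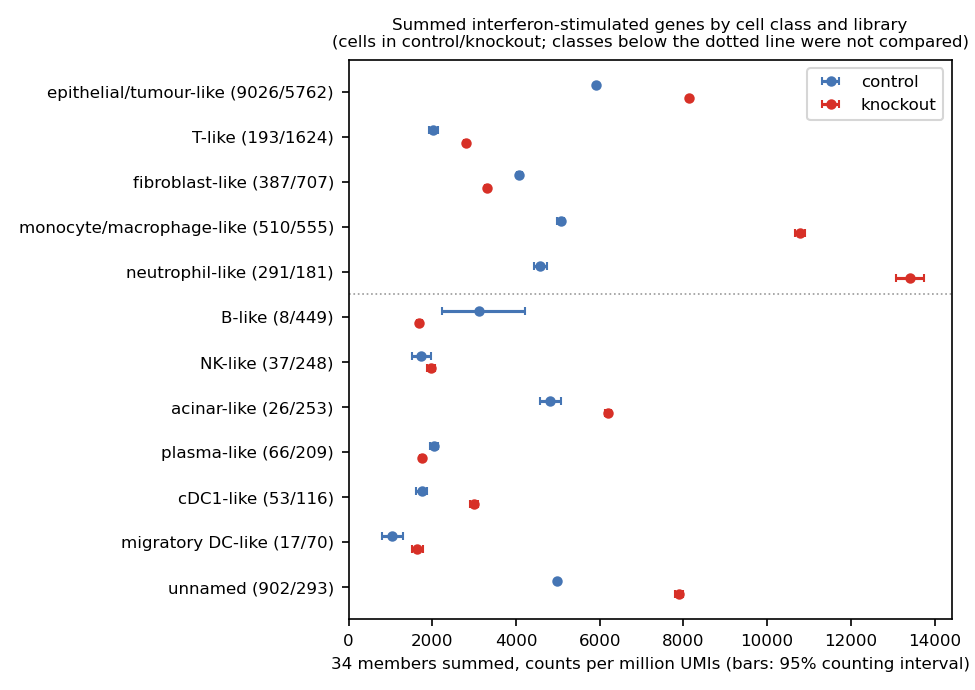
Summed level of the 34 members (x axis, CPM) in each cell class (y axis, with cells in control/knockout), as points for the control and knockout library with 95% counting intervals. Classes under the dotted line had under 100 cells in a library or no name. The knockout point lies to the right in the tumour-like, T-like, macrophage-like and neutrophil-like classes and to the left in the fibroblast-like class.

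Member by member, the difference was broad in myeloid cells, partial in tumour-like and T-like cells and of the other sign in fibroblast-like cells. Log2 ratios were taken with 1 UMI added to each library, for genes with at least 20 UMIs over both, and 1.5-fold served as the threshold. In macrophage-like cells 30 of 34 members were more than 1.5-fold higher in the knockout library, where 7.69% of all tested genes were. None was 1.5-fold lower, against 10.4% of all genes. In neutrophil-like cells 27 of 30 tested members were past 1.5-fold higher, where 17.2% of all tested genes were, and none was lower, against 17.9%. Both counts stand far from the share of genes of any kind. The members were chosen with earlier results of these data known, so that gap is a description only.

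In tumour-like cells 14 of 34 members were past 1.5-fold higher against 9.95% of all genes, and none past 1.5-fold lower against 5.65%. In T-like cells the count was 10 of 32 against 9.63%, with none lower against 16.6%. That T-like count rests on few control UMIs. It includes Oasl1, which had none in the control, and Ifit1, Ifit3 and Ifi44, which did not stand clear of the tumour RNA amount, and with at least 100 UMIs required it was 6 of 23. In fibroblast-like cells no member was past 1.5-fold higher against 12.9% of all genes, and 7 of 34 were past 1.5-fold lower against 7.04%.

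The median log2 ratio of the tested members was 1.47 in neutrophil-like cells, where the median over all genes was -0.03. It was 1.02 in macrophage-like cells against -0.03, 0.53 in tumour-like cells against -0.05, 0.12 in T-like cells against -0.08, and -0.28 in fibroblast-like cells against 0.07. Within the neutrophil-like clusters described further on, the median was below the class value. It was 0.68 over 30 members in the Cxcl2-led one, 0.95 over 12 in that with Retnlg and 0.07 over 7 in that with Camp. By level, 13 members were highest in neutrophil-like cells in the control library, 13 in tumour-like, 7 in macrophage-like and 1 in T-like cells. In the knockout library the counts were 18, 8, 8 and 0. UMIs of a 3′ library count molecules, so levels were compared between genes without scaling by length. The spread among members within a class was wide. In macrophage-like cells it ran from -0.21 for Ifi27 to 2.37 for Ifi44, and in tumour-like cells from -0.16 for Lgals3bp to 1.44 for Ifi27l2a.

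**Figure D2:**
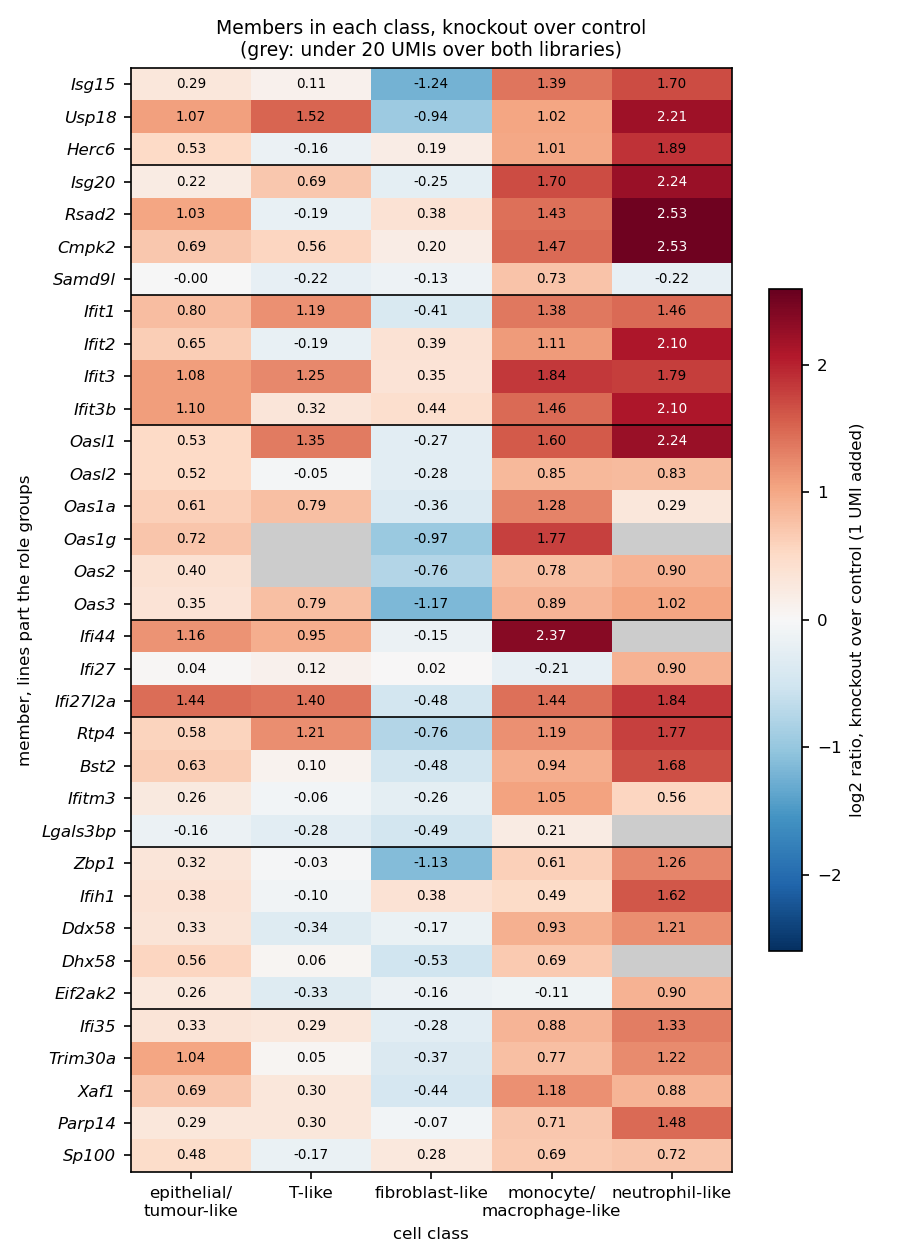
Log2 ratio of knockout over control (colour and number, 1 UMI added) for each member (rows, grouped by role) in the 5 compared cell classes (columns), with grey cells for members under 20 UMIs. The macrophage-like and neutrophil-like columns are red in nearly every row, and the fibroblast-like column is blue for 25 of 34 members.

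The ISGylation genes encode Isg15, a ubiquitin-like protein that is joined to other proteins, Herc6, the ligase that joins it in mice, and Usp18, which removes it and also restrains the interferon receptor. All 3 were past 1.5-fold higher in macrophage-like and in neutrophil-like cells. Isg15 (ENSMUSG00000035692, chromosome 4, 156199424 to 156200818 on GRCm38) had 284 CPM in control and 747 CPM in knockout macrophage-like cells, a log2 ratio of 1.39 (1.27 to 1.52). Its level in neutrophil-like cells was 496 CPM in the control and 1610 CPM in the knockout library, a log2 ratio of 1.70 (1.52 to 1.88). Neutrophil-like cells thus had the highest Isg15 level of the 5 classes in either library.

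Isg15 differed little in tumour-like cells, with 333 CPM and 407 CPM and a log2 ratio of 0.29 (0.27 to 0.31), and in T-like cells, with 52.2 CPM and 58.0 CPM and a log2 ratio of 0.11 (-0.34 to 0.69). In fibroblast-like cells it was the member with the lowest ratio, at 115 CPM in the control and 48.6 CPM in the knockout library, a log2 ratio of -1.24 (-1.44 to -1.04). The share of fibroblast-like cells with an Isg15 UMI was 35.4% in the control and 22.5% in the knockout library, at median depths of 9847 and 9074 UMIs. Usp18 had 28 CPM and 58.9 CPM in tumour-like cells, a log2 ratio of 1.07 (1.01 to 1.13). Isg15 and Usp18, a protein modifier and the enzyme that removes it, therefore stood apart in tumour-like cells. In T-like cells Usp18 had the highest ratio of any tested member, 1.52 on the log2 scale, but from 3 control UMIs and 112 knockout UMIs (0.34 to 4.22). Its fibroblast-like level was 17.6 CPM in the control and 9.17 CPM in the knockout library.

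The IFIT genes encode proteins that bind foreign RNA and keep it from being translated, and the 4 measured members lie together on chromosome 19, from 34550694 to 34650009. All 4 were past 1.5-fold higher in tumour-like, macrophage-like and neutrophil-like cells. Ifit3 had 336 CPM in control and 710 CPM in knockout tumour-like cells, a log2 ratio of 1.08 (1.06 to 1.10). In macrophage-like cells it had 55.9 CPM and 201 CPM, a log2 ratio of 1.84 (1.57 to 2.13), the second highest of that class. In neutrophil-like cells the values were 87.4 CPM and 305 CPM, a log2 ratio of 1.79 (1.38 to 2.24). Tumour-like cells had the highest Ifit3 level of the 5 classes in both libraries.

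T-like cells had 11.6 CPM and 30.8 CPM of Ifit3, from 8 and 209 UMIs, a log2 ratio of 1.25 (0.40 to 2.64). Fibroblast-like cells had 33.3 CPM and 42.6 CPM, a log2 ratio of 0.35 (0.07 to 0.65). Of the 34 members, 9 were higher in knockout fibroblast-like cells, and 3 of the IFIT genes were among them, with Sp100, Ifih1, Rsad2, Cmpk2, Herc6 and Ifi27. Ifit3b had the highest ratio there, with 5.66 CPM and 7.86 CPM and a log2 ratio of 0.44 (-0.23 to 1.21), and Ifit2 the next, with 14.4 CPM and 18.9 CPM and 0.39 (-0.04 to 0.85). In the same cells Ifit1 was lower, at 43.6 CPM and 32.9 CPM, a log2 ratio of -0.41 (-0.69 to -0.12). Ifit3b in tumour-like cells had 75.1 CPM and 160 CPM, a log2 ratio of 1.10 (1.06 to 1.13) that is close to that of Ifit3. The last 500 bases of the Ifit3 transcript, where a 3′ library is read, matched no other gene at 98% identity over 50 bases or more. Ifit3 and Ifit3b in fibroblast-like cells were among the members that did not stand more than 2 times above the amount of tumour RNA given above in both libraries.

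The OAS genes encode oligoadenylate synthetases, which switch on RNase L when they meet double-stranded RNA, and Oasl1 and Oasl2 are their like-named relatives. All 6 measured members lie on chromosome 5. In macrophage-like cells all 6 were past 1.5-fold higher, in neutrophil-like cells 4 of 5 tested, in tumour-like cells 2 of 6, and in fibroblast-like cells 3 of 6 were past 1.5-fold lower. Oasl2, the OAS member with the most UMIs, had 97.0 CPM in control and 139 CPM in knockout tumour-like cells, a log2 ratio of 0.52 (0.48 to 0.55). It had 85.3 CPM and 154 CPM in macrophage-like cells, a log2 ratio of 0.85 (0.61 to 1.10), and 145 CPM and 258 CPM in neutrophil-like cells, 0.83 (0.45 to 1.22). In fibroblast-like cells it had 45.1 CPM and 37.1 CPM, a log2 ratio of -0.28 (-0.55 to -0.01). T-like cells held 3 and 37 Oasl2 UMIs, 4.35 CPM and 5.46 CPM, with a log2 ratio of -0.05 (-1.33 to 2.67).

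Other OAS members spread further. Oas1g had 6.63 CPM in control and 23.7 CPM in knockout macrophage-like cells, a log2 ratio of 1.77 (1.04 to 2.73), the third highest of that class. The last 500 bases of an Oas1a transcript lie wholly within an Oas1g transcript at 98% identity. The last 500 bases of an Oas1g transcript matched no other gene at that identity. Reads from that Oas1a end can thus belong to either neighbour, and the separate values of Oas1a and Oas1g are uncertain. Oas1a had 18.7 CPM and 22.2 CPM in neutrophil-like cells, a log2 ratio of 0.29 (-1.07 to 1.50), among the lowest of that class. Oasl1, known in mice to hold back Irf7 translation, had 110 CPM and 523 CPM in neutrophil-like cells, a log2 ratio of 2.24 (1.89 to 2.62). It had no UMI in control T-like cells and 24 in knockout T-like cells, 3.54 CPM, which is below the 4.35 CPM that 3 control counts would make, so no fold is given. Oas3 in fibroblast-like cells had 5.01 CPM and 2.18 CPM, a log2 ratio of -1.17 (-2.24 to -0.20). Its knockout level there was not more than 2 times above the tumour RNA amount.

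The nucleic acid sensors were the role group with the lowest median log2 ratio in tumour-like cells (0.33) and in macrophage-like cells (0.61). They comprise Ifih1 and Ddx58, which sense viral RNA and signal through Mavs, their relative Dhx58, the kinase Eif2ak2, which halts translation, and Zbp1, a sensor of Z-form nucleic acids. None of 5 was past 1.5-fold in tumour-like cells, and 3 of 5 were in macrophage-like cells. Zbp1 had 159 CPM in control and 198 CPM in knockout tumour-like cells, a log2 ratio of 0.32 (0.29 to 0.34). It had 128 CPM and 196 CPM in macrophage-like cells, 0.61 (0.41 to 0.82) on the log2 scale, and 35 CPM and 84.5 CPM in neutrophil-like cells, 1.26 (0.53 to 2.03). In T-like cells it had 65.3 CPM and 65.1 CPM, a log2 ratio of -0.03 (-0.45 to 0.47).

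Zbp1 in fibroblast-like cells stood with Isg15 and Oas3 among the lowest, at 62.1 CPM in the control and 28.4 CPM in the knockout library, a log2 ratio of -1.13 (-1.40 to -0.86). Eif2ak2 was the sensor that did not share the macrophage-like difference, with 66.3 CPM and 61.6 CPM and a log2 ratio of -0.11 (-0.42 to 0.21). In T-like cells, Ddx58 had 56.6 CPM and 45.6 CPM, a log2 ratio of -0.34 (-0.80 to 0.21), and Eif2ak2 42.1 CPM and 34.4 CPM, -0.33 (-0.85 to 0.32), the lowest ratios of tested members there. Their intervals include 0.

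The antiviral effectors include Rsad2 (viperin), which makes a chain-terminating nucleotide, and its neighbour Cmpk2, a nucleotide kinase. On chromosome 12 Rsad2 spans 26442746 to 26456452 and Cmpk2 26469204 to 26479837. Isg20 is an exonuclease, and Samd9l restrains translation. Of these 4, 2 were past 1.5-fold higher in tumour-like cells, 4 in macrophage-like cells and 3 in neutrophil-like cells. Rsad2 had the highest ratio of any member in neutrophil-like cells, with 568 CPM in the control and 3282 CPM in the knockout library, a log2 ratio of 2.53 (2.38 to 2.68), and there it made up 12.4% and 24.5% of the member sum. Cmpk2 in the same cells had 46.2 CPM and 271 CPM, a log2 ratio of 2.53 (2.01 to 3.13). The pair differed less in tumour-like cells, where Rsad2 had 49.3 CPM and 101 CPM, a log2 ratio of 1.03 (0.99 to 1.07), and Cmpk2 19.3 CPM and 31.3 CPM, 0.69 (0.62 to 0.77). Rsad2 in macrophage-like cells had 183 CPM and 495 CPM, a log2 ratio of 1.43 (1.28 to 1.59). In fibroblast-like cells it had 3.92 CPM and 5.24 CPM, from 18 and 36 UMIs, 0.38 (-0.44 to 1.32), a level that was not 2 times above the tumour RNA amount either.

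Isg20, the effector with the most UMIs, had 87.4 CPM and 418 CPM in neutrophil-like cells, a log2 ratio of 2.24 (1.85 to 2.67), and 27.7 CPM and 90.9 CPM in macrophage-like cells, 1.70 (1.32 to 2.12). Its tumour-like level was 278 CPM and 323 CPM, a log2 ratio of 0.22 (0.20 to 0.24). In the control library tumour-like cells had the highest Isg20 level of the 5 classes, and in the knockout library neutrophil-like cells had. In T-like cells Isg20 had 60.9 CPM and 101 CPM, a log2 ratio of 0.69 (0.28 to 1.21), and in fibroblast-like cells 44.9 CPM and 37.7 CPM, -0.25 (-0.52 to 0.02). Samd9l was an exception in 2 classes: it had 168 CPM and 167 CPM in tumour-like cells, a log2 ratio of -0.00 (-0.03 to 0.02), and 209 CPM and 178 CPM in neutrophil-like cells, -0.22 (-0.63 to 0.16).

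The membrane and secreted factors are Ifitm3, which blocks virus entry at membranes, Bst2 (tetherin), which holds budding virions at the cell surface, Rtp4, a chaperone of cell-surface receptors, and Lgals3bp, a secreted glycoprotein. Of the tested members of this group, 1 of 4 was past 1.5-fold higher in tumour-like cells, 3 of 4 in macrophage-like cells and 2 of 3 in neutrophil-like cells, and 1 of 4, Rtp4, was past 1.5-fold lower in fibroblast-like cells. Ifitm3 alone made up 35.5% of the member sum in control and 30.8% in knockout tumour-like cells, so the sum follows it more than any other member. It had 2097 CPM and 2504 CPM in tumour-like cells, a log2 ratio of 0.26 (0.25 to 0.26). In macrophage-like cells it had 1469 CPM and 3040 CPM, a log2 ratio of 1.05 (0.99 to 1.11), and the class with the highest Ifitm3 level was thus tumour-like in the control and macrophage-like in the knockout library. In neutrophil-like cells it had 938 CPM and 1385 CPM, 0.56 (0.41 to 0.72), in fibroblast-like cells 1824 CPM and 1524 CPM, -0.26 (-0.30 to -0.22), and in T-like cells 119 CPM and 115 CPM, -0.06 (-0.38 to 0.30).

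Bst2 had 565 CPM and 876 CPM in tumour-like cells, a log2 ratio of 0.63 (0.62 to 0.65). Lgals3bp went its own way: 146 CPM and 131 CPM in tumour-like cells, a log2 ratio of -0.16 (-0.19 to -0.13), 143 CPM and 166 CPM in macrophage-like cells, 0.21 (0.01 to 0.42), and 47.9 CPM and 40.4 CPM in T-like cells, -0.28 (-0.77 to 0.32). No other member was lower in knockout tumour-like cells by more than counting error.

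The nuclear and regulatory factors are Sp100, a part of nuclear bodies, Parp14, an ADP-ribosyltransferase, Trim30a, a ligase that dampens innate signalling, Xaf1, a pro-apoptotic factor, and Ifi35, a leucine-zipper protein. In both myeloid classes all 5 were past 1.5-fold higher, and so were Trim30a and Xaf1 in tumour-like cells. Parp14, with the most UMIs, had 132 CPM in control and 161 CPM in knockout tumour-like cells, a log2 ratio of 0.29 (0.26 to 0.32). It had 162 CPM and 265 CPM in macrophage-like cells, 0.71 (0.53 to 0.89), and 139 CPM and 387 CPM in neutrophil-like cells, 1.48 (1.13 to 1.84). T-like cells had 100.1 CPM and 125 CPM, 0.30 (-0.04 to 0.70), and fibroblast-like cells 59.7 CPM and 57.1 CPM, -0.07 (-0.29 to 0.16). Trim30a had 42.1 CPM and 86.4 CPM in tumour-like cells, a log2 ratio of 1.04 (0.99 to 1.08). Sp100 was the one member with its highest control level in T-like cells, at 296 CPM in the control and 264 CPM in the knockout library, a log2 ratio of -0.17 (-0.38 to 0.05).

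Ifi27 and Ifi27l2a encode small membrane proteins of one family and are neighbours on chromosome 12 (103434211 to 103440239 and 103442167 to 103443680), and Ifi44 is an unrelated antiviral gene on chromosome 3. The neighbours differed. Ifi27 had 294 CPM in control and 302 CPM in knockout tumour-like cells, a log2 ratio of 0.04 (0.02 to 0.06). Ifi27l2a had 103 CPM and 280 CPM in the same cells, 1.44 (1.41 to 1.47), the highest ratio of any member there, and the share of tumour-like cells with an Ifi27l2a UMI was 22.9% and 46.3%. In macrophage-like cells the contrast was the same, with 144 CPM and 125 CPM of Ifi27, a log2 ratio of -0.21 (-0.42 to 0.01), and 685 CPM and 1860 CPM of Ifi27l2a, 1.44 (1.36 to 1.52).

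T-like cells also had far more Ifi27l2a in the knockout library, 398 CPM and 1053 CPM, a log2 ratio of 1.40 (1.23 to 1.59), so that this gene made up 19.7% of the member sum in the control and 37.5% in the knockout library. Ifi27 in T-like cells had 155 CPM and 170 CPM, a log2 ratio of 0.12 (-0.16 to 0.43), in fibroblast-like cells 215 CPM and 218 CPM, 0.02 (-0.10 to 0.13), and in neutrophil-like cells 124 CPM and 231 CPM, 0.90 (0.49 to 1.32). Ifi44 had 39.3 CPM and 205 CPM in macrophage-like cells, a log2 ratio of 2.37 (2.07 to 2.71), the highest of that class, and was found in 10.2% of control and 42.5% of knockout macrophage-like cells, at median depths of 2873 and 4057 UMIs. In tumour-like cells it had 43.9 CPM and 98.3 CPM, 1.16 (1.12 to 1.21). In neutrophil-like cells Ifi44 was under the limit of 20 UMIs, with 5 control UMIs and 1 knockout UMI.

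To read the members per cell at 1 depth, each cell was thinned to 2000 UMIs and its member UMIs were summed, and shallower cells were left out. A score of 30 or more, reached by at most 5% of control cells, was called high. In macrophage-like cells 7.58% (4.96 to 11) of 330 control cells and 32.2% (27.7 to 36.8) of 426 knockout cells were high. The unthinned shares were 6.67% and 27.2%. The median score was 6 in the control and 16 in the knockout library, and the upper 75th percentile 13 and 36, so both the middle and the top of the distribution stood higher.

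In neutrophil-like cells 3.81% (1.05 to 9.47) of 105 control cells and 34.3% (23.3 to 46.6) of 70 knockout cells were high, with medians of 4 and 14.5. These shares are of the whole class, whose cluster makeup differed between the libraries. Thinning left out 186 control and 111 knockout neutrophil-like cells, more than it kept. Thinned to 1000 UMIs, which kept most of them, the shares were 9.39% and 33.5%, and unthinned they were 8.93% and 32.0%. In tumour-like cells 5.44% (4.98 to 5.94) of 8799 control cells and 11.9% (11 to 12.7) of 5563 knockout cells were high, with medians of 9 and 12. Unthinned, these shares were 4.97% and 10.3%. T-like and fibroblast-like cells with a high score were rare: 1 of 135 and 10 of 1350 T-like cells, 0.741% in both, and 2 of 372 (0.538%) and 2 of 674 (0.297%) fibroblast-like cells. The T-like shares give a background for a class with a low level. A high score cuts a continuous range: 103 control and 155 knockout tumour-like cells lay within 1 UMI of the threshold.

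**Figure D3:**
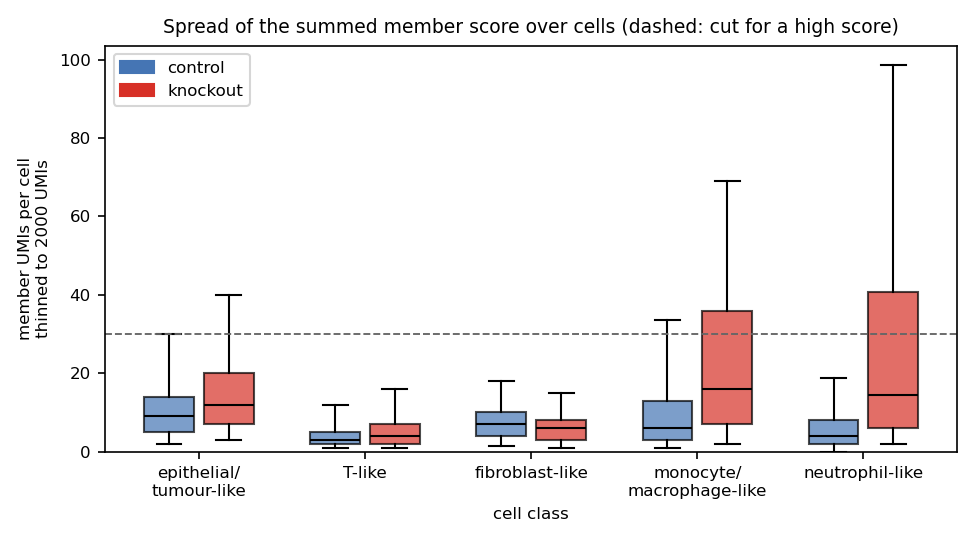
Member UMIs per cell after thinning to 2000 UMIs (y axis) in the 5 compared classes (x axis) for each library. Boxes span the 25th to 75th percentile with the median as a line, whiskers reach the 5th and 95th percentile, and the dashed line is the threshold of 30. The upper whiskers of knockout macrophage-like and neutrophil-like cells reach 69 and 98.7, against 33.5 and 18.8 in the control.

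Within the myeloid classes, the size of the difference was not the same in every cluster. Among macrophage-like cells, a cluster led by Arg1 and Mmp12 (236 control and 252 knockout cells) had the highest sums, 5665 CPM and 14030 CPM, a ratio of 2.48 (2.42 to 2.54). The cluster led by Arg1 and Pid1 (136 and 133 cells) had 3435 CPM and 5884 CPM, a ratio of 1.71 (1.57 to 1.86). The cluster led by C1qa and C1qb (138 and 170 cells) had 4194 CPM and 7058 CPM, 1.68 (1.61 to 1.76). All 3 macrophage-like clusters were higher in the knockout library, and with the clusters weighted alike the class ratio was 2.13, as without weighting. The 6 T-like clusters, with only 10 to 82 control cells each and so under the limit for a comparison, had ratios of sums from 1.21 to 1.56. Their median member log2 ratios ran from -0.22 to 0.35, so no rise of the members as a set is read from those sums.

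Neutrophil-like clusters differed more from each other than between libraries. A cluster led by Cxcl2 (133 and 140 cells) had 10472 CPM in the control and 19157 CPM in the knockout library, a ratio of 1.83 (1.74 to 1.92). The cluster with Retnlg among its leading genes (104 and 30 cells) had 3306 CPM and 5411 CPM, 1.64 (1.42 to 1.88). In the cluster with Camp, a granule gene of immature neutrophils (54 and 11 cells), the values were 2033 CPM and 2266 CPM, 1.11 (0.961 to 1.29). The Cxcl2-led cluster held 133 of 291 neutrophil-like cells in the control and 140 of 181 in the knockout library. The class ratio was 2.93 from summed UMIs, 2.36 as a mean over cells and 1.78 with clusters weighted alike. These settings differ in more than cluster makeup, and the part of that shift in the class ratio was not tested. The neutrophil-like values of single members, their counts past a threshold and the high-score shares were not weighted by cluster.

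**Figure D4:**
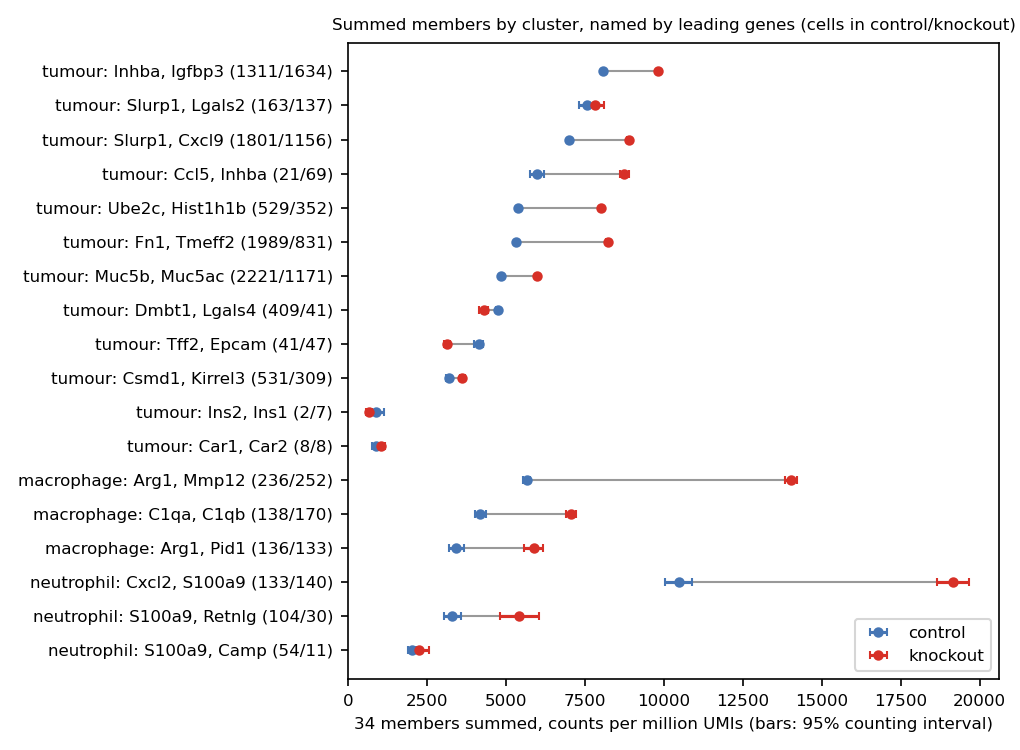
Summed level of the 34 members (x axis, CPM) in clusters of tumour-like, macrophage-like and neutrophil-like cells (y axis, named by leading genes, with cells in control/knockout). Points are the 2 libraries with 95% counting intervals, joined by a line. The Cxcl2-led neutrophil cluster reaches 19157 CPM and the Arg1 and Mmp12 macrophage cluster 14030 CPM in the knockout library, and the clusters under 100 cells in a library include those where the control point lies to the right.

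Tumour-like cells were clustered again without the interferon-related genes, which gave 7 subsets with at least 100 cells in each library. The sum was higher in the knockout library in all 7, with ratios from 1.03 to 1.54. At a finer resolution it was higher in all 11 compared subsets, with ratios from 1.12 to 1.50. The subsets differed from each other more than the libraries did, with control sums from 3191 CPM to 8076 CPM. Cells led by Inhba and Igfbp3 (1311 and 1634 cells) had the highest sum, 8076 CPM in the control and 9832 CPM in the knockout library, a ratio of 1.22 (1.21 to 1.22). Their control level exceeded the knockout level of the Muc5b and Muc5ac subset (2221 and 1171 cells), which had 4861 CPM and 5994 CPM, a ratio of 1.23 (1.22 to 1.24).

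The widest difference among tumour subsets was in cells led by Fn1 and Tmeff2 (1989 and 831 cells), with 5337 CPM and 8236 CPM, a ratio of 1.54 (1.53 to 1.56). Cycling cells led by Ube2c (529 and 352 cells) followed with 5403 CPM and 8029 CPM, 1.49 (1.47 to 1.50). A subset led by Slurp1 and Cxcl9 (1801 and 1156 cells) had 7001 CPM and 8892 CPM, 1.27 (1.26 to 1.28). The remaining pair were shallow. Cells led by Csmd1 and Kirrel3 (531 and 309 cells, with a median of 4335 UMIs) had 3191 CPM and 3627 CPM, 1.14 (1.10 to 1.17). Cells led by Slurp1 and Lgals2 (163 and 137 cells, with a median of 1633.5 UMIs) had 7566 CPM and 7821 CPM, 1.03 (0.985 to 1.09), a difference within counting error.

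Shares of high-score cells differed between subsets too. In the Inhba and Igfbp3 subset 14.5% of control and 18.7% of knockout cells were high, in the Fn1 and Tmeff2 subset 3.90% and 11.3%, and in the Muc5b and Muc5ac subset 1.85% and 3.68%. The Inhba and Igfbp3 subset made up 14.5% of control and 28.4% of knockout tumour-like cells. Giving each tumour cluster the same weight in both libraries put the tumour-like ratio at 1.30 in place of 1.38. Cells led by Dmbt1 and Lgals4 had 41 knockout cells against 409 in the control and were not compared: their sums were 4741 CPM and 4302 CPM.

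Single members did not all follow the subsets. Ifit3 ranged from 128 CPM to 1234 CPM over the 7 subsets in both libraries. In the Fn1 and Tmeff2 subset it had 238 CPM in the control and 604 CPM in the knockout library, and in the Inhba and Igfbp3 subset 801 CPM and 1234 CPM. Isg15 was higher in the knockout library in the Fn1 and Tmeff2 subset, at 228 CPM and 382 CPM, but not in the Inhba and Igfbp3 subset, at 681 CPM and 619 CPM, nor in the Slurp1 and Cxcl9 subset, at 452 CPM and 436 CPM. Isg15 therefore lay in opposite directions in different subsets.

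Over the 14 points made by 7 subsets and 2 libraries, which share depth and library, a member's level was set against the sum of the other members (Pearson r of log2 of CPM plus 10, as a description). The closest were Bst2 with 0.96, Zbp1 with 0.95 and Xaf1 with 0.95. Oas2 with -0.55, Parp14 with -0.42 and Eif2ak2 with -0.40 ran the other way. Of genes outside the set, the 5 that followed the sum most closely were Irf7 (0.94), a transcription factor that amplifies interferon production, Apol9a (0.93), Psmd4 (0.93), a proteasome subunit, Fxyd5 (0.92) and Pgam1 (0.92), a glycolytic enzyme.

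Members also differed in how far they were concentrated in a few tumour-like cells. For each member, thinned tumour-like cells in the top 10% for the other members were compared with the rest. Rsad2 was 24.0-fold higher in those cells in the control and 10.6-fold in the knockout library, Ifit2 15-fold and 8.65-fold, Ifit3b 13.7-fold and 7.11-fold, and Isg15 10.6-fold and 5.92-fold. At the other end Ifitm3 was 1.93-fold and 1.78-fold higher, Lgals3bp 1.83-fold and 1.75-fold, and Ifi27 1.01-fold and 0.846-fold. Ifi27 thus had nearly the same level in both sets of control tumour-like cells, although it ranged from 70.9 CPM to 404 CPM over the tumour subsets. Ifi27l2a combined a moderate 4.09-fold concentration in the control with the highest library ratio.

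**Figure D5:**
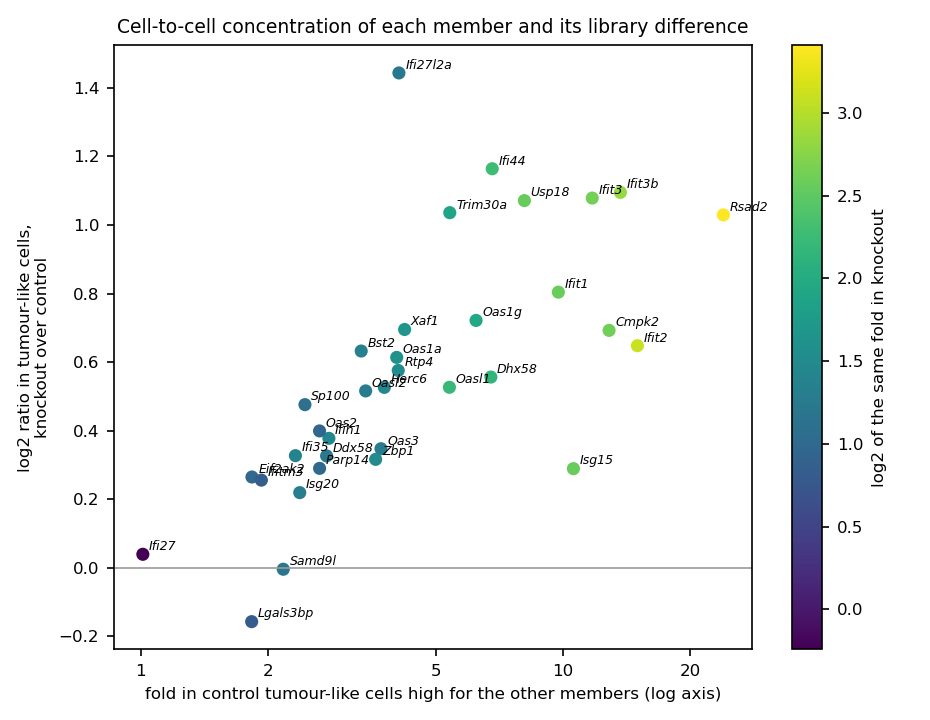
Each member's fold between control tumour-like cells in the top 10% for the other members and the rest (x axis, log axis) against its log2 ratio of knockout over control in tumour-like cells (y axis), coloured by log2 of the same fold in knockout cells. Ifi27, Samd9l and Lgals3bp sit at the lower left, Rsad2 at the far right, and Isg15 lies low for its fold of 10.6.

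Among the other genes of the pathway, the ligands were sparse. Ifnb1 had 3 control UMIs in 2 macrophage-like cells and 39 knockout UMIs in 8 macrophage-like cells, with at most 14 in 1 cell. In tumour-like cells it had 4 UMIs in 3 control cells and 28 UMIs in 3 knockout cells, 26 of them in 1 cell. Ifna1, Ifna2, Ifna4, Ifna5, Ifnl2 and Ifnl3 had no UMI in these 5 classes of either library, and Ifnk and Ifne had at most 3 per class. Ifng, the type II ligand, was found mainly in T-like cells, with 540 CPM in the control and 184 CPM in the knockout library, where 97 of 372 control UMIs and 181 of 1245 knockout UMIs came from 1 cell each.

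Counts of receptor and transducer genes past 1.5-fold varied by class. In tumour-like cells no signal transducer of 6 and 1 receptor gene of 6, Ifnlr1 with 33 and 46 UMIs, was past 1.5-fold higher, and in macrophage-like cells 2 transducers of 6, Jak2 and Stat2, and no receptor gene of 5. In T-like cells 3 of 5 receptor genes were past 1.5-fold higher and 1 of 6 transducers lower. In neutrophil-like cells 4 of 6 receptor genes were higher and 1 lower, and 3 of 5 transducers were higher. Of all tested genes, 9.95% were past 1.5-fold higher in tumour-like, 7.69% in macrophage-like, 9.63% in T-like and 17.2% in neutrophil-like cells. Past 1.5-fold lower were 16.6% in T-like and 17.9% in neutrophil-like cells. Beside these shares, a single gene of such short lists is not read as a difference. Ifnar1 had 22.7 CPM and 20.6 CPM in tumour-like cells and 95.7 CPM and 115 CPM in macrophage-like cells. Of the IRF factors, 3 of 6 were past 1.5-fold higher in tumour-like, 1 of 6 in macrophage-like and 4 of 5 in neutrophil-like cells. In T-like cells 1 of 6 was higher and 1 lower, and in fibroblast-like cells none of 6 was past 1.5-fold. Irf7 lay in the direction of the members in the classes named next. It had 105 CPM and 188 CPM in tumour-like cells, 158 CPM and 435 CPM in macrophage-like cells, 69.9 CPM and 262 CPM in neutrophil-like cells, and 44.9 CPM and 31.3 CPM in fibroblast-like cells.

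Targets that lean towards interferon gamma were past 1.5-fold higher for 3 of 11 genes in macrophage-like cells, 2 of 11 in tumour-like cells and 8 of 8 tested in neutrophil-like cells, and past 1.5-fold lower for 5 of 11 in fibroblast-like cells. In T-like cells 1 of 11 was higher and 2 were lower. The shares of all genes past 1.5-fold higher were 7.69%, 9.95% and 17.2% in macrophage-like, tumour-like and neutrophil-like cells, 7.04% of all genes were lower in fibroblast-like cells, and 9.63% were higher and 16.6% lower in T-like cells. Cxcl10, a chemokine of both interferon types, had 164 CPM and 532 CPM in macrophage-like cells, 92.4 CPM and 594 CPM in neutrophil-like cells, and 38.8 CPM and 12.2 CPM in fibroblast-like cells. Cxcl9 in fibroblast-like cells had 153 CPM and 58.7 CPM. The lower member level of fibroblast-like cells thus came with lower Cxcl9 and Cxcl10.

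Genes of dissociation stress were also higher in the knockout library in the classes where the members were. Their median log2 ratio over 10 genes was 0.44 in tumour-like, 0.64 in T-like, 0.58 in macrophage-like, 0.57 in neutrophil-like and -0.03 in fibroblast-like cells. In that order, 3, 6, 5, 5 and 2 of the 10 were past 1.5-fold higher, against 9.95%, 9.63%, 7.69%, 17.2% and 12.9% of all genes. In fibroblast-like cells 2 of the 10 were also past 1.5-fold lower, against 7.04% of all genes. Hspa1a, a heat-shock gene, had 195 CPM and 450 CPM in macrophage-like cells and 41.2 CPM and 86.5 CPM in tumour-like cells. Their part in the members' difference was not tested. Housekeeping genes had a median log2 ratio of -0.22 in fibroblast-like cells, near the members' median of -0.28 there. Of these, 2 of 8, Gapdh and Rplp0, were past 1.5-fold lower, against 7.04% of all genes. Their part in the lower fibroblast-like level was not tested. In the other 4 classes the housekeeping medians lay between -0.08 and 0.15.

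Members with and without the ISRE core in their promoter window covered overlapping ranges of log2 ratios, from 0.26 to 1.10 with a match and from -0.16 to 1.16 without one in tumour-like cells. In macrophage-like cells the median log2 ratio was 1.16 over 14 members with a match and 1.06 over 12 without, and in neutrophil-like cells 1.46 over 13 and 1.61 over 10. In tumour-like cells it was 0.62 and 0.52, and in fibroblast-like cells -0.31 and -0.20. Isg15, Ifit3 and Rsad2, shown above with their matches, spanned log2 ratios from 0.29 to 1.08 in tumour-like cells, and Ifi44 and Cmpk2, with no match in the window, had 1.16 and 0.69. These members' matches say nothing of which factor bound there.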

How the data were processed

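Raw UMI counts per gene and cell were used as deposited by the authors, in 1 matrix per library of the 10x Genomics 3′ v3.1 kit. Cell Ranger 3.1.3 is named in the submitters' processing notes and 8.0.0 per the file headers, with the genome build mm10. The members and lists were chosen with earlier results of these data known. Barcodes under 500 genes or over 15% mitochondrial UMIs were dropped, and Scrublet (expected rate 0.08) removed 148 control and 341 knockout doublets. Scanpy 1.11.5 gave Leiden clusters (resolution 1, and 0.5 within tumour-like cells) from 2000 variable genes, 30 principal components and 15 neighbours, with 245 interferon-related genes left out. UMIs were summed per class and library, and log2 ratios were taken with 1 UMI added. Intervals were exact Poisson for levels, Clopper-Pearson for shares and conditional binomial for ratios. For medians, only in comparing settings, they came from the ranks of the members (binomial). Total depth was 173934025 UMIs in the control and 137527647 in the knockout library. With 1 library per genotype no test between genotypes was made.

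The genes named in full were the 3 members with the highest and the 3 with the lowest log2 ratio in each class and the member with the most UMIs in each role group. Any other member named was chosen after its values were seen. Alternatives covered the cell filter, doublets, the interferon genes in clustering, averaging over cells, the UMI minimum, the fold threshold, thinning and cluster weighting. The calculations were tested on simulated data. Python 3.11.15, scipy 1.17.1 and BLAST 2.17.0 (for matches between transcripts) were used.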

Additional observations from a re-analysis of the deposited data

Results flagged for a closer look

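The summed member level of fibroblast-like cells lay lower in the knockout library, with a ratio of 0.811, while it lay higher in tumour-like, T-like, macrophage-like and neutrophil-like cells. The difference between the classes was not tested, since each genotype had 1 library.

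Cells left without a class name, which entered no comparison, also carried the members, with 4979 CPM in the control and 7893 CPM in the knockout library, a ratio of 1.59 (1.56 to 1.61). Of these, a cluster led by Csmd1 and Hmga2 (428 control and 80 knockout cells) had 5030 CPM and 8349 CPM, and that led by Rgs5 and Fabp4 (109 and 33 cells) had 6085 CPM and 4661 CPM. That led by Lyz2 and Tyrobp (7 and 87 cells) had 5546 CPM and 10027 CPM, and that led by S100a9 and Lyz2 (75 and 37 cells) 5449 CPM and 9595 CPM. The rest were the Col1a2-led cluster given above. The shares of these clusters differed between the libraries, and the part of that in the ratio of 1.59 was not tested.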

How the results depend on the processing

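No paired analysis was possible because each genotype had 1 library. No result turned its direction under any alternative that gave a value, and of the values recomputed under an alternative 31 lay outside the interval of the reported value (for a count, outside 1.5 times of it) and 63 did not. For a median log2 ratio that interval came from the ranks of the members' own ratios, such as 0.78 to 1.38 in macrophage-like cells. It shows the spread among members and is not a counting interval, so the 63 are not all within counting error. The 63 include the neutrophil-like ratio of high-score shares, which was 9 (3.09 to 35.7) and became 3.57 with thinning to 1000 UMIs. The tumour-like ratio of summed levels was 1.34 as a mean over cells, 1.39 with the stricter cell filter, 1.40 with the looser one, 1.40 with interferon genes in the clustering, 1.39 with doublets kept, 1.53 without members high in resting cells and 1.30 with clusters weighted alike. The T-like ratio was 1.27 as a mean over cells and 1.07 without members high in resting cells. The fibroblast-like ratio was 0.873 as a mean over cells, 0.752 with the stricter filter, 0.835 with the looser one and 0.908 with doublets kept. The macrophage-like ratio was 2.31 as a mean over cells and 1.89 with the stricter filter. The neutrophil-like ratio was 2.36 as a mean over cells, 3.59 with the stricter filter and 3.30 without members high in resting cells. The median member log2 ratio was -0.57 (stricter filter) and -0.10 (doublets kept) in fibroblast-like cells, and 1.02 (mean over cells) and 2.05 (stricter filter) in neutrophil-like cells. Past 2-fold there were 7 tumour-like (5.05% of all genes), 6 T-like (4.18%), 18 macrophage-like (2.66%) and 21 of 30 neutrophil-like members higher (7.82%) and 3 fibroblast-like members lower (3.02%), and with at least 100 UMIs 6 T-like members past 1.5-fold. After seeing the data, cluster weighting within leukocyte classes (neutrophil-like 1.78) and the adding of unnamed clusters (tumour-like 1.39, fibroblast-like 0.791, macrophage-like 2.02) were included. The cause of these shifts was not tested, apart from the fewer members counted under a higher limit. The doublet caller marked no control cell under the stricter filter. Thinned to 4000 UMIs, 0 of 41 control neutrophil-like cells were high, so no ratio was given, and T-like and fibroblast-like cells had too few high cells for one.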

Other observations

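Classes with under 100 cells in a library were not compared. Their summed member levels in the control and knockout library were 3109 CPM and 1694 CPM in B-like cells (8 and 449 cells), 1737 CPM and 1973 CPM in NK-like cells (37 and 248), and 4813 CPM and 6197 CPM in acinar-like cells (26 and 253). They were 2041 CPM and 1751 CPM in plasma-like cells (66 and 209), 1744 CPM and 2993 CPM in cDC1-like cells (53 and 116), and 1030 CPM and 1647 CPM in migratory DC-like cells (17 and 70). The epithelial markers stood at 23.7% of the tumour-like level in control and 6.47% in knockout plasma-like cells, which would carry 1401 CPM and 526 CPM of members, so no direction is read from the plasma-like sums, nor from the B-like ones with 8 control cells. In acinar-like cells, which are epithelial themselves, these markers were at 93.1% and 112% of the tumour-like level.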
